A study of Mus musculus with 10 samples.

Results

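Lrrk2, a kinase gene, and Nod2, the gene of an innate immune sensor, are described here as a pair. The description covers every H3K27ac region that the authors listed at them in brain macrophages. The members were chosen by the lists themselves: a region belongs to a gene when its midpoint lies inside that gene, or when one of the gene's ends is the nearest end of any protein-coding gene within 100 kb. By this rule 5 of 1320 listed regions belong to the pair, 4 to Lrrk2 and 1 to Nod2. All 5 come from the list for monocyte-derived macrophages (MDM, 428 regions), and 0 come from the list for the YSM group (892 regions). Since the lists chose the genes, these counts are a description and carry no test.

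The lists come from CUT&Tag, which uses an antibody to guide a transposase to DNA beside a histone mark. H3K27ac marks active promoters and enhancers. The labels give 4 MDM and 4 YSM libraries for this mark, all from parenchymal macrophages sorted from brains of Ms4a3Cre:R26-tdTomato mice and all under the treatment label DR-3x, which is not explained and which both groups share. Cre under the Ms4a3 gene leaves a red reporter in cells that descend from granulocyte-monocyte progenitors, and both groups carry these alleles. Whether the libraries come from separate animals is not stated. YSM is not spelled out, and the labels give no age or sex. One further library per group, named for H3K27me3, was not analysed here. The lists hold no value per library, so no spread between replicates, no fold change and no depth can be given for any region. Each list was taken to hold the regions richer in H3K27ac in the group it is named after, and a larger share of cells with the mark cannot be told apart from more of it per cell.

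As background, Lrrk2 encodes a large protein with a kinase and a GTPase domain that phosphorylates Rab GTPases of endosomes and lysosomes. It is abundant in monocytes and macrophages, and mutations in the human gene cause familial Parkinson disease. Nod2 encodes a cytosolic receptor of the NLR family that binds muramyl dipeptide from bacterial cell walls and signals through the kinase RIPK2 to NF-kB. Both proteins carry leucine-rich repeats, and human variants in or near both genes are associated with Crohn disease.

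The sequence that bears most directly on the lists is the start of Lrrk2, because 1 MDM region covers it whole. The windows below run from 250 bases before to 50 bases after the transcription start in the RefSeq promoter table for GRCm38.p6, the assembly of mm10, with CpG dinucleotides in capitals. Lrrk2 lies on the plus strand of chromosome 15 (window chr15:91672974-91673273). Nod2, on the plus strand of chromosome 8 (window chr8:88647097-88647396), is shown because no listed region reaches its start. Nlrc4, a sensor gene of the inflammasome on the minus strand of chromosome 17 (window chr17:74459059-74459358), is shown because an MDM region covers its start as well.
Lrrk2: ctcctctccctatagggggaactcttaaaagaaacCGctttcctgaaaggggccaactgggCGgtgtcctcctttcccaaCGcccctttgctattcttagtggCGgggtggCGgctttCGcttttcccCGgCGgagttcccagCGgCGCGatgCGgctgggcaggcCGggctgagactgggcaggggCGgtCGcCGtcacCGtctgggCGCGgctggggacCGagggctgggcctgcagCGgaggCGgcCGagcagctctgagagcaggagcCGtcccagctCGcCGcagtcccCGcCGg
Nod2: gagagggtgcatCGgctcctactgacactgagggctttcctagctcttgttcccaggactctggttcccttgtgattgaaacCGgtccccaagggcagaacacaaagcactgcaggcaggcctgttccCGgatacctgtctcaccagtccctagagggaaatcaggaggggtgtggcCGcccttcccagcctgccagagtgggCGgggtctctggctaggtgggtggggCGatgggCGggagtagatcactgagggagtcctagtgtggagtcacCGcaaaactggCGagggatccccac
Nlrc4: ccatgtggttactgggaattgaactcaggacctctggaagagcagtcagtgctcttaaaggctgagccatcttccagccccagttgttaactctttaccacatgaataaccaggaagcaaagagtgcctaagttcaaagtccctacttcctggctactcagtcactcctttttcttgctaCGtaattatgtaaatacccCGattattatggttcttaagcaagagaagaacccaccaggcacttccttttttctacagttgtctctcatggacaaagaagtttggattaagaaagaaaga

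The 3 windows differed in base composition. Lrrk2 held 28 CpG dinucleotides in 300 bases and was 68.7% G and C, against medians of 7 and 52.7% over 32851 windows, and 12.9% of windows held more CpG. Its ratio of observed to expected CpG was 0.79. Nod2 held 9 CpG at 61.0% G and C, with a ratio of 0.33, and 43.5% of windows held more CpG. Nlrc4 held 2 CpG at 42.7% G and C, with a ratio of 0.15, and 76.7% of windows held more. Of the pair of starts that MDM regions covered, one was thus rich and the other poor in CpG.

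**Figure D1:**
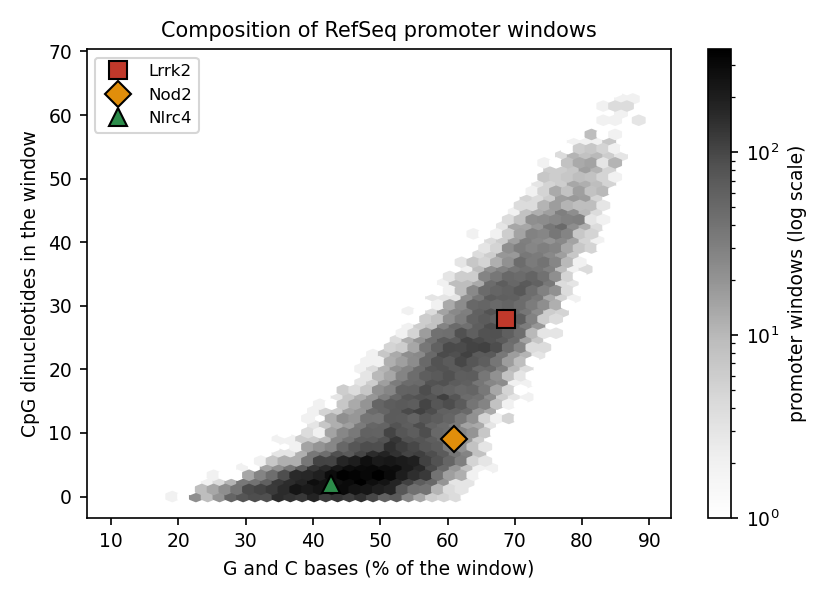
Base composition of 32851 RefSeq promoter windows of 300 bases: the x axis is the share of G and C bases in percent, the y axis the number of CpG dinucleotides, and the grey scale the number of windows per cell on a log scale. The square (Lrrk2, 28 CpG) lies in the CpG-rich arm, the diamond (Nod2, 9 CpG) along its lower edge and the triangle (Nlrc4, 2 CpG) in the CpG-poor bulk.

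Of 13 short motifs of macrophage transcription factors, searched as exact letters on both strands, Lrrk2 held 0. Nod2 held 1, the KLF motif CCACACCC, on the reverse strand from base 169 of the window, and 3.56% of all windows hold it. Nlrc4 held the ETS core GGAAGT at 2 places (bases 145 and 241, reverse strand; 23.8% of windows hold it). It also held the C/EBP motif TTGCNNAA (base 215, reverse strand; 10.8%) and the RUNX motif TGTGGTT (base 4; 5.27%). Bases are counted from 1 at the 5′ end of the window. The motifs with no match in any of the 3 windows were the longer ETS and PU.1 motif GAGGAAGT, which contains the ETS core (3.2% of windows), AP-1 as TGANTCA (7.81%) and IRF as GAAANNGAA (8.56%). The others were NF-kB as GGGANTTTC (1.11%), MEF2 as TATTTATA (1.7%), CREB as TGACGTCA (1.79%), the E-box CACGTG of MITF and TFE factors (7.15%), MAF as TGCTGAC (4.67%) and STAT as TTCCNGGAA (1.15%). A missing match says only that these letters do not stand in the window.

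Lrrk2 occupies chr15:91672791-91816124, 143 kb in all, and 7.05% of protein-coding genes are longer. Its region at chr15:91672088-91674088 reached from 1136 bp before to 864 bp after the transcription start and held the whole promoter window. The midpoint lay at -0.136 kb from that start, a negative sign meaning upstream, and 0.297 kb inside the annotated end of the gene, which stands 433 bp before the start used for the window. In file order this region was number 85 of 428, the earliest of the 4. Whether the order ranks the regions by any measure is not stated.

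A second region inside Lrrk2, chr15:91702261-91704261, had its midpoint 30.5 kb inside the gene's 5′ end, at 21.3% of its length, and file rank 101. Exons and introns could not be separated with the annotation used.

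The other regions of Lrrk2 lay upstream, between the gene and Slc2a13, a proton-coupled inositol transporter gene. The region chr15:91660072-91662072 had its midpoint at -12.2 kb from the start and file rank 166. The region chr15:91650652-91652652 lay at -21.6 kb and came late in the list, at rank 397. The 4 regions thus formed a run of 53.6 kb with gaps of 7.42, 10.0 and 28.2 kb, and none overlapped another. In the MDM list as a whole, 284 of 428 regions (66.4%) overlapped no other region of the list.

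Nod2 occupies chr8:88647315-88688474, 41.2 kb, and 26.8% of protein-coding genes are longer. Its single region, chr8:88667769-88669769, lay in the middle of the gene, 21.4 kb after the start (52.1% of the gene's length) and 19.7 kb from the nearest gene end. No promoter window of the table and no annotated miRNA fell inside it. It was number 3 in file order, the earliest region of the MDM list with its midpoint inside a protein-coding gene. Numbers 1, 2 and 4 lay together at chr2:98665314-98668131, at least 1030 kb from the nearest protein-coding gene, Lrrc4c.

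**Figure D2:**
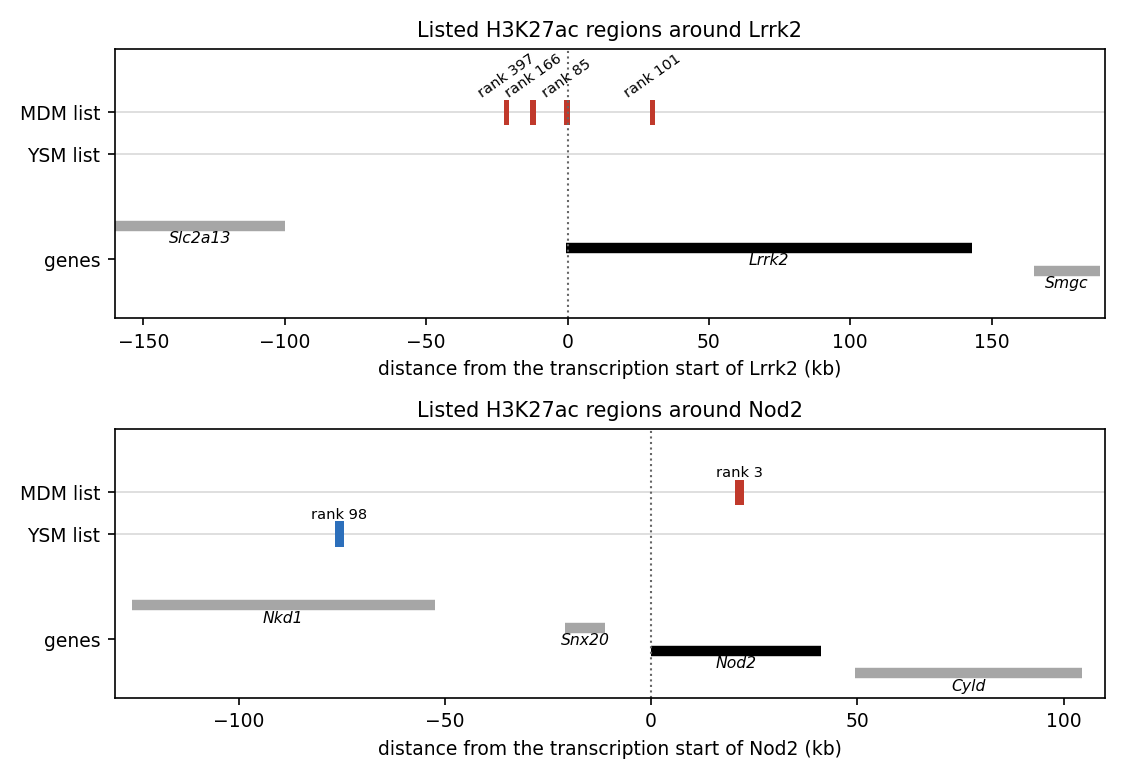
Listed regions around Lrrk2 (top) and Nod2 (bottom): the x axis is the distance from each gene's transcription start in kb, red and blue bars are 2001 bp regions of the MDM and YSM lists with their file ranks, the black bar is the gene named in the title, and grey bars are other protein-coding genes. Lrrk2 has 1 region over its start (rank 85), 2 before it and 1 after, whereas the Nod2 region (rank 3) sits within the gene and a YSM region (rank 98) lies in Nkd1.

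The protein-coding genes beside the pair had no listed region. Few genes had one, with shares over all genes of 1.06% for the MDM list and 2.16% for the YSM list. At Lrrk2 these are Slc2a13, 99.5 kb before it, and Smgc, a salivary gland protein gene 22.2 kb after it. At Nod2 they are Snx20, a sorting nexin gene 11.2 kb before it, and Cyld, a deubiquitinase gene that restrains NF-kB signalling, 8.4 kb after it. All 5 regions were therefore nearest to Lrrk2 or Nod2 and none was shared with a neighbour.

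The surroundings of the genes differed. Within 1 Mb of the Lrrk2 start the lists held 4 MDM and 0 YSM regions. The YSM regions closest to the 4 Lrrk2 regions lay 1540 to 1560 kb away. For the upstream and start regions this was chr15:90108736-90110736, 115 kb from Alg10b, a glucosyltransferase gene. For the region within the gene it was chr15:93244871-93246871, inside Gxylt1, a xylosyltransferase gene. Such distances were common, since 284 of 428 MDM regions (66.4%) lay more than 1500 kb from any YSM region and the median distance was 2490 kb.

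Around Nod2 the lists met. The closest YSM region, chr8:88570774-88572774, lay 95.0 kb away inside Nkd1, an antagonist of Wnt signalling, with file rank 98 of the YSM list. This distance was among the shortest of the MDM list, in which 8 of 428 regions (1.87%) lay within 100 kb of a YSM region and the minimum was 63.8 kb. Within 1 Mb of the Nod2 start there were 1 MDM and 13 YSM regions, 12 of which had Sall1, the microglial identity factor, as nearest protein-coding gene. The first of these, chr8:89041911-89043911, covered the Sall1 start, 372 kb from the Nod2 region. By the limit of 100 kb, 5 of the 12 belong to Sall1, and the others lay farther off, up to 360 kb from it. Some of the 13 YSM regions overlapped, and together they formed 10 separate groups. The Nod2 region thus had YSM regions on both sides. The next MDM regions on that side, chr8:90377231-90379231 and chr8:90390533-90392533, lay 29.2 and 42.5 kb from Tox3, a gene of an HMG-box protein.

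The upstream regions of Lrrk2 depend on the distance limit, since their midpoints lay 11.7 and 21.1 kb outside the gene. With a limit of 10 kb, Lrrk2 had 2 MDM regions in place of 4. The nearest region that did not belong to either gene was the one in Nkd1, at -75.6 kb from the Nod2 start, which is nearest to Nkd1 and inside it.

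The deposited files give 2 further entries per region whose meaning is not stated, a score and a whole number that ends the region name. The score in the authors' deposited lists was 1 for all 5 regions, as for 421 of 428 MDM regions. The name number was 4 for the Nod2 region and for the 3 Lrrk2 regions of ranks 85, 101 and 166, and 2 for the Lrrk2 region of rank 397. In the MDM list 185 of 428 regions (43.2%) carry a 4 and 62 (14.5%) a 2. Numbers of 4 or more stood in 92 of the first 107 regions in file order and in 5 of the last 107. The low number and the late rank of the region farthest upstream of Lrrk2 therefore went together as they did in the list at large.

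**Figure D3:**
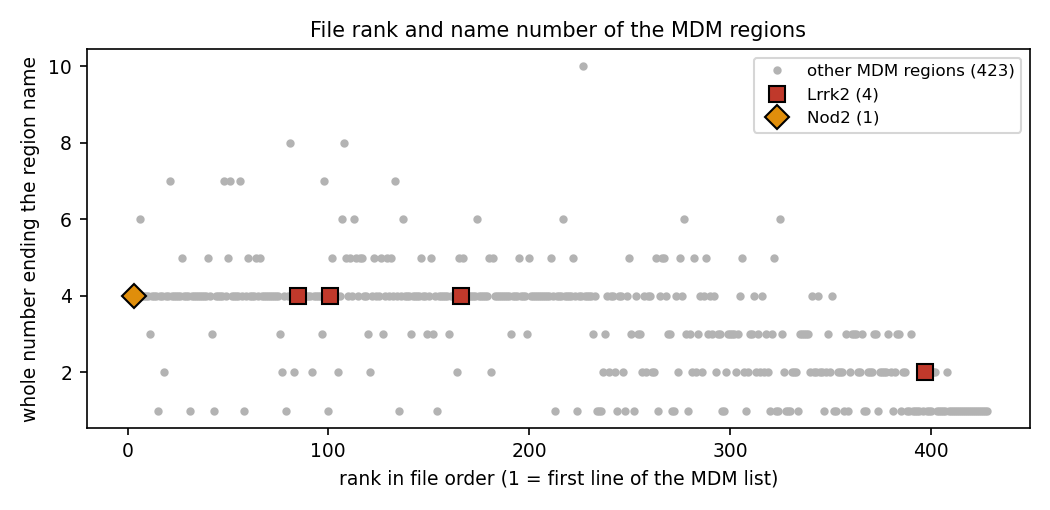
Each point is 1 region of the MDM list: the x axis is its rank in file order and the y axis the whole number that ends its name. The Nod2 diamond (rank 3) and 3 of the Lrrk2 squares (ranks 85, 101 and 166) stand at 4 and the last square (rank 397) at 2, where low numbers prevail.

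Set against the genome, few genes had any listed region. By the same rule 232 of 21887 protein-coding genes (1.06%) had an MDM region and 472 (2.16%) a YSM region, and Lrrk2 and Nod2 are among the former by choice. Long genes had regions more often: an MDM region was assigned to 108 of 2429 genes of 100 kb or more (4.45%), the class of Lrrk2, and to 81 of 7610 genes of 20 to 100 kb (1.06%), the class of Nod2. Nod2 is 1 of 152 genes with 1 MDM region and no YSM region. Lrrk2 is 1 of 11 genes (0.0503% of all) with 4 or more MDM regions, and 1 of 7 whose regions form 4 or more groups that do not overlap.

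**Figure D4:**
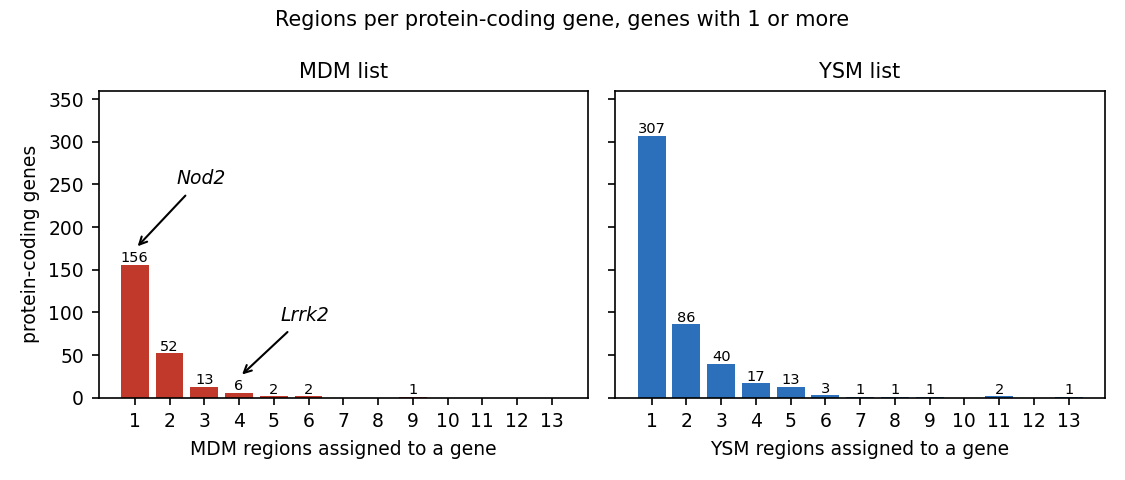
Number of protein-coding genes (y axis) by how many regions of the MDM list (left, red) or the YSM list (right, blue) were assigned to them (x axis), for genes with at least 1 region. Nod2 belongs to the 156 genes with 1 MDM region and Lrrk2 to the 6 with 4; neither appears on the right, since both have 0 YSM regions.

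Starts of genes were rarely covered. An MDM region held a whole promoter window of 31 of 17492 protein-coding genes in the promoter table (0.177%), and Lrrk2 and Nlrc4 are among them while Nod2 is not. Lrrk2, which has 1 promoter window, is 1 of 5 genes with a covered window and at least 3 further MDM regions. A gene counted when any of its windows was held. The others, picked out after their values were seen, were Dach1 (9 regions), Plcb4 (6), Adam19 (5) and Stard13 (4). The midpoint nearest to a gene end lay 0.069 kb away at Dach1 and 0.194 kb at Plcb4. It lay 7.52 kb away at Adam19 and 19.6 kb at Stard13, so the windows covered there were not at an annotated gene end.

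The genes most like each member were taken as those with the same number of regions in both lists and the most similar distance from the nearest region to a gene end. For Lrrk2 there were 5 candidates. The closest was Serpinb2, the gene of plasminogen activator inhibitor 2, whose region chr1:107524868-107526868 lay 0.268 kb from a gene end, against 0.297 kb for Lrrk2 (difference of 0.045 in log10 of the distance). Fam110b followed with chr4:5643059-5645059 at 0.05 kb (0.774), then Stard13, a gene of a GTPase-activating protein, with chr5:151056158-151058158 at 19.6 kb (1.819). At Serpinb2 and Fam110b no MDM region held a window of the promoter table, unlike at Lrrk2 and Stard13. A gene without a window in that table counts in the same way, and whether Fam110b has one was not looked up. The Fam110b region did span an annotated end of its gene. For Nod2 there were 151 candidates. Those nearest to its 19.7 kb were the oestrogen receptor gene Esr1 (chr10:4631401-4633401) and the DNA repair gene Rad54b (chr4:11578347-11580347), both at 20.4 kb. They were followed by the Golgi mannosidase gene Man1a (chr10:53924599-53926599) at 20.8 kb.

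Genes linked to Lrrk2 were looked up by the same rule. Like the gene lists that follow, this list was chosen with earlier results of these data known, so its counts carry no test. Of 42 genes linked to the LRRK2 protein or to Parkinson disease, among them its Rab substrates Rab8a, Rab10 and Rab12 and the paralogue Lrrk1, 3 had an MDM region (7.14%, beside 1.06% of all genes). The count was 0 with a distance limit of 10 kb, and 0 when regions were assigned to the nearest transcription start. The MDM genes were Bst1, an ADP-ribosyl cyclase gene (chr5:43854949-43856949, 12.5 kb from its end), Dnajc13, an endosomal co-chaperone gene (chr9:104139508-104141508, 11.1 kb), and Fbxo7, an F-box protein gene (chr10:86123324-86125324, 72.5 kb). In all 3 the midpoint lay outside the gene, and none covered a start. At the Bst1 region the start of Cd38 was 12.9 kb away, and at the Dnajc13 region the start of Ackr4 was 13.9 kb away while that of Dnajc13 was 122 kb away. The Fbxo7 region lay inside another gene, the synapsin gene Syn3, which the rule assigns as well, and 102 kb from the start of Fbxo7.

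The pathway of Nod2 had no region in either list. None of 39 genes of NOD1 and NOD2 signalling was assigned one, including the related receptor gene Nod1, the kinase gene Ripk2, the adaptor gene Card9, the autophagy gene Atg16l1 and the NF-kB subunit genes Nfkb1 and Rela. Over all genes the shares were 1.06% for the MDM list and 2.16% for the YSM list.

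Among 62 other genes of innate sensing, which comprise Toll-like receptors, inflammasome genes, sensors of nucleic acids and C-type lectin receptors, 1 had an MDM region (1.61%, beside 1.06% of all genes) and 0 a YSM region. This was Nlrc4, whose protein forms an inflammasome with NAIP receptors of bacterial flagellin. Its region chr17:74458013-74460013, at file rank 137 with name number 6, had its midpoint 0.095 kb after the transcription start and held the promoter window printed above. The closest YSM region was 1670 kb away.

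Marker genes of other cell types were looked up in the same way, beside shares over all genes of 1.06% for the MDM list and 2.16% for the YSM list. The marker lists were chosen with earlier results of these data known, so their counts carry no test. Of 11 monocyte and engrafted macrophage markers, 3 (Anxa1, Cd93 and Mgst1) had an MDM region and 0 a YSM region. Of 10 microglia markers, 0 had an MDM region and 1 (Sall1) a YSM region. Of 6 neutrophil markers, 1 (Retnlg) had an MDM region, and its part in the Lrrk2 and Nod2 regions was not tested. Markers of neurons (1 of 3, Snap25), astrocytes (1 of 3, Slc1a3) and oligodendrocytes (2 of 3, Mbp and Mog) had YSM regions, and 0 of these had an MDM region. The 3 endothelial markers had a region in neither list. The source of the YSM regions at these markers was not tested.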

How the data were processed

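H3K27ac was profiled by CUT&Tag in 4 MDM and 4 YSM libraries. The authors deposited 1 list of regions per group, each region 2001 bp long, with a name and a score of unstated meaning. Per the file names the lists come from a DESeq2 comparison, and its threshold, scaling and direction are not stated. Per the submitters' processing notes, Bowtie2 2.2.5, Trimmomatic 0.39, HOMER and Picard were used, in no stated role or order, on mm10. Depth is unknown, as are counts per library.

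Positions were converted to count from 1. Genes came from a RefSeq table of GRCm38.p6 with 21887 protein-coding genes, and starts, strands and sequences from the RefSeq promoter table with 32851 windows. Regions were assigned with Python 3.11.15 and pandas 2.3.3 as the report states, and the assignment was tested on simulated regions. No statistical test was run, because the members were chosen on this contrast.

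The members, the gene lists and the marker lists were chosen with earlier results of these data known. Named genes were the members, genes of the lists with a region, neighbours, and the 3 genes most like each member. Rigi had no entry of its own in the gene table. YSM regions of the Parkinson-linked list are not reported here. Alternatives varied the distance limit, the reference point, the competing genes, joining of regions and the part of the list used.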

Additional observations from a re-analysis of the deposited data

How the results depend on the processing

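No paired analysis was possible because neither file gives a value for a single library; leaving out a library was not possible either. The 4 MDM regions of Lrrk2 became 2 with a limit of 10 kb and 2 when only midpoints inside the gene counted, because the upstream regions lie 11.7 and 21.1 kb outside it. They were 3 in the upper part of the list, split at its middle in file order, and 4 with limits of 500 kb or none, with nearest gene ends only, region edges, genes of every type, joined regions and nearest transcription starts. The single MDM region of Nod2 and the 0 YSM regions of both genes stayed the same in all 11 alternatives. The midpoint of the Nod2 region lies inside the gene, so distance limits and joining could not have changed its count. YSM regions lie 1540 to 1560 kb from the Lrrk2 regions at the closest, so limits up to 500 kb could add none there. The 3 Parkinson-linked genes with an MDM region became 0 with a limit of 10 kb and 2 with genes of every type. They became 0 by nearest transcription start, an alternative chosen after the data were seen. Bst1 has no entry in the promoter table. The count of 1 innate sensing gene, Nlrc4, and the 0 of the Nod2 pathway did not change in the 5 alternatives run for them. Motif letters were not varied.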

Other observations

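The head of the MDM list held regions of unlike surroundings. Numbers 1, 2, 4 and 11 in file order lay at chr2:98661638-98668131, between 1030 and 1040 kb from the nearest protein-coding gene and 4750 kb from any YSM region. Number 3, in Nod2, lay 95.0 kb from a YSM region. Among the first 20 regions, number 9 was the other one within 100 kb of a YSM region, at 63.8 kb from a region near Nectin2. Number 9 (chr7:19682946-19684946) lay 2.49 kb from an end of Gm44805 and equally far from an end of Apoc4. What the file order stands for is not stated.

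Of the 8 MDM regions within 100 kb of a YSM region, 3 were overlapping regions near Ercc6l2 on chromosome 13, 74.0 to 74.6 kb from a YSM region near Ptch1. The remaining ones were those at Nod2, Slc25a26 (66.2 kb), Slc9a9 (77.4 kb) and Gm46345 (97.0 kb), and the one beside Gm44805 and Apoc4.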
